A study of Zea mays with 48 samples.

Results

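The nuclear genes ssu1 (Zm00001d052595) and ssu2 (Zm00001d004894) of maize, which code for the small subunit of Rubisco, were followed across 48 RNA libraries. They are 2 of 46430 features in the deposited count tables. They were chosen by identifier, in the gene numbering of version 4 of the B73 genome, with earlier results of these data known. The symbols came with the identifiers, because the name table used here matched none of the 44146 nuclear gene models. The plants belonged to the inbred line B73, were at the three-leaf stage and had been grown at 26 °C before treatment, with no transgene or mutant allele in any group. Leaf, top crown, bottom crown and root were sampled, the crown being the junction of shoot and root. Control plants kept shoot and root at 26 °C. Chilling lasted 24 h. Whole-plant chilling held shoot and root at 4 °C, shoot-only chilling combined a shoot at 4 °C with a root at 26 °C, and root-only chilling combined a shoot at 26 °C with a root at 0 °C. The 2 treatments that chilled the root therefore used different root temperatures, and the labels do not give the temperature of the crown parts under local chilling. Each of the 16 groups had 3 libraries, described as biological repeats and no further, so the p-values reflect the spread among these libraries, which may be partly technical.

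Rubisco fixes CO2 in the Calvin cycle. Its large subunit, the product of rbcL, is encoded in the plastid genome and carries the active site, while the small subunit is encoded by a family of nuclear RbcS genes, made in the cytosol and imported into the chloroplast. Maize is a C4 plant, in which mature leaves hold Rubisco in the chloroplasts of the bundle sheath cells and not in those of the mesophyll, and RbcS transcripts are among the abundant messages of green leaves. The family members code for near-identical proteins. The counting step behind the tables is not given in the sources used here, so reads that match both genes could have been assigned to either, and the levels and the ratio of ssu1 and ssu2 are uncertain by that amount.

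Libraries were made from the 3′ ends of polyadenylated RNA, so a count stands for a transcript and does not grow with its length. Total counts per library ran from 3449880 to 8633854. All libraries carry the same flow cell name in the labels. No 2 replicates of a group agreed within sampling noise, the lowest chi-square per degree of freedom between them being 4.01, and each library was therefore kept as a sample of its own. Root whole-plant replicate 1 stood apart from its group, with 21358 features detected against 23317 and 23332. It was also shallower, with 4073804 counts against 4689021 and 4951089, and root results that involve it are given with and without it. Bottom crown whole-plant replicate 1 was deeper than its group, with 8633854 counts against 6203884 and 6252603. Its chi-square per degree of freedom was 19.85 and 23.02 against the other replicates, which had 8.37 between them. Markers of leaf cell types could not be looked up, because nuclear identifiers are not paired with names here.

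In control plants both genes were most abundant in leaf, followed by bottom crown, top crown and root. On the scale common to all 48 libraries, in CPM, which relate a count to the TMM-scaled size of its library, ssu1 stood at 8782, 7377 and 6785 CPM in the 3 control leaf libraries and ssu2 at 7665, 6466 and 6893 CPM. Bottom crown followed with 86.28, 95.51 and 134 CPM of ssu1 and 58.9, 51.09 and 72.68 CPM of ssu2. Top crown held 43.78, 43.89 and 29.54 CPM of ssu1 and 19.56, 23.82 and 23.01 CPM of ssu2. No library of one tissue overlapped a library of the next in this order for either gene. Root had 0.6035, 0.5336 and 1.693 CPM of ssu1 and 3.018, 5.069 and 4.374 CPM of ssu2, the 1 tissue in which ssu2 exceeded ssu1 in every control library. These root values rest on 4 to 12 counts of ssu1 and 20 to 38 counts of ssu2 per library.

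Each pair of tissues differed for both genes in control plants, by edgeR's quasi-likelihood test over 21720 genes with Benjamini-Hochberg adjustment, the test behind every adjusted p of a log2 difference given here. Leaf exceeded bottom crown by 6.18 on the log2 scale for ssu1 (SE 0.39, adjusted p = 5.2e-18) and by 6.85 for ssu2 (SE 0.29, adjusted p = 3.9e-24), where 26% of all genes were higher in leaf. Leaf exceeded top crown by 7.61 and 8.31 (31.5% of all genes higher in leaf) and root by 12.95 and 10.71 (26.2%). Top crown lay below bottom crown by about the same amount for both genes, with log2 differences of -1.43 (SE 0.33, adjusted p = 0.0004) and -1.46 (SE 0.24, adjusted p = 2.4e-06), where 23.3% of all genes were lower. Top crown exceeded root by 5.34 for ssu1 and 2.40 for ssu2 (32.9% of all genes higher in top crown), and bottom crown exceeded root by 6.77 and 3.86 (26.3%). The median of all genes was not at 0 in the leaf comparisons and moved with the scaling. It was -0.08, -0.32 and -0.38 for leaf against top crown, bottom crown and root with TMM, and -1.21, -1.41 and -1.43 with library size alone. Under that scaling the leaf differences were 6.48, 5.08 and 11.92 for ssu1 and 7.17, 5.74 and 9.65 for ssu2, and all 6 were still called.

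**Figure D1:**
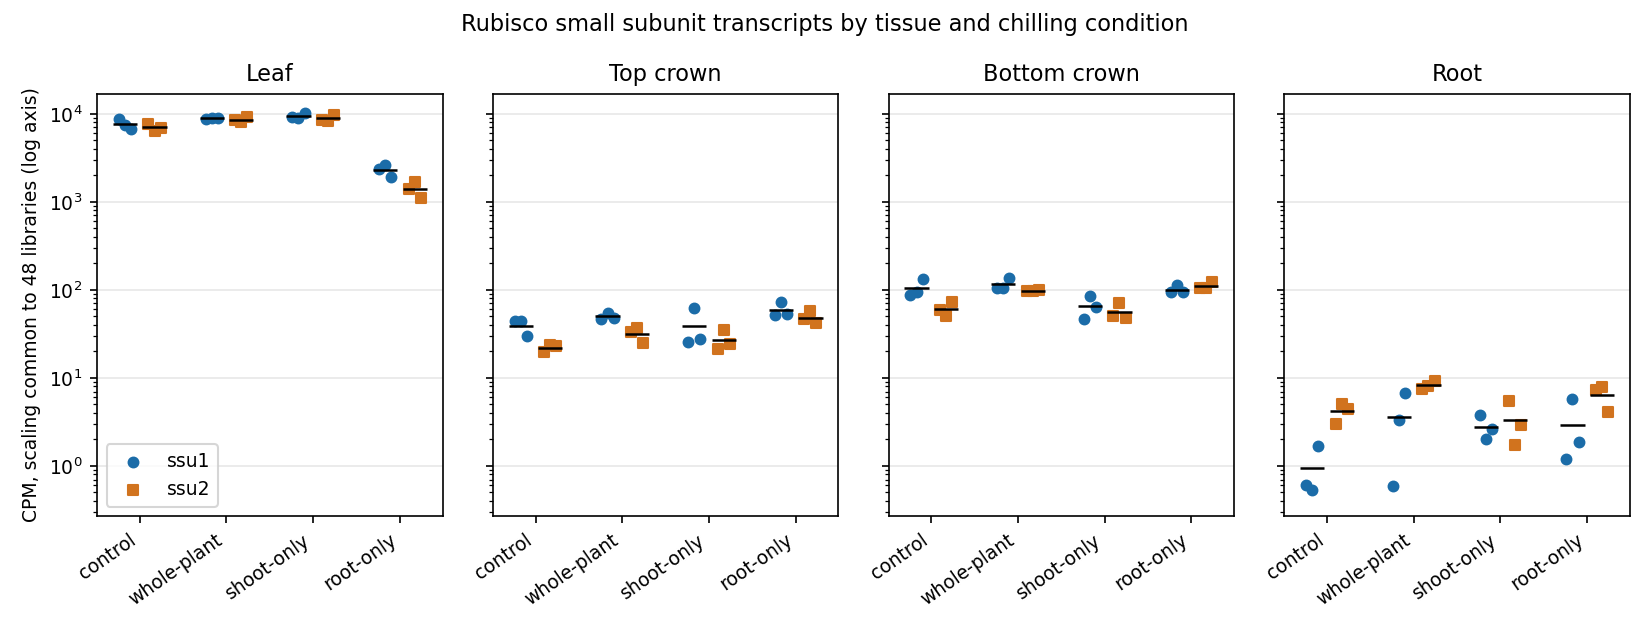
CPM of ssu1 (circles) and ssu2 (squares) on a log axis, on the scale common to 48 libraries, by tissue and condition; each point is 1 library and each line the mean of 3. Leaf lies above both crown parts and root in every condition, and the leaf libraries of root-only chilling form the 1 leaf group that drops, to means of 2289 CPM for ssu1 and 1395 CPM for ssu2.

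By count, ssu1 held places 32 to 37 among all features in control leaf and ssu2 places 35 to 38. Under root-only chilling ssu1 held places 55 to 82 and ssu2 places 83 to 143. In the bottom crown the best place in any library was 848 for ssu1 and 1099 for ssu2, in the top crown 1874 and 2435, and in root 11632 and 10227.

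In leaf, both genes fell when the root was chilled and the leaf was not. Within a tissue, levels are given on the scaling of its own 12 libraries, on which leaf values are lower than on the common scale. Control leaf had 5182, 4590 and 4118 CPM of ssu1, and root-only chilled plants had 1444, 1626 and 1189 CPM. For ssu2 control leaf had 4523, 4023 and 4184 CPM, and root-only chilled plants had 858.2, 1043 and 695 CPM. Every root-only library lay below every control library for both genes, with no overlap. The means dropped from 4630 ± 533.1 to 1420 ± 219.5 CPM for ssu1 and from 4243 ± 255.2 to 865.4 ± 174.1 CPM for ssu2 (SD, n = 3 each). As fitted changes, ssu1 was 3.26-fold lower (log2 -1.71, SE 0.16, 95% interval -2.05 to -1.37, adjusted p = 3.5e-08) and ssu2 4.90-fold lower (log2 -2.29, SE 0.17, 95% interval -2.65 to -1.94, adjusted p = 9.6e-10). In this comparison 24.3% of 15845 genes fell. Of all genes tested 9.01% had a lower fold change than ssu1 and 5.14% a lower one than ssu2. Both calls held without any 1 of the 6 libraries. Scaling by library size alone shifted the median over all genes from 0.06 to 0.48, and the changes of ssu1 and ssu2 were -1.28 and -1.87. In bulk leaf tissue, fewer bundle sheath cells and less RNA per cell cannot be told apart.

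When the leaf itself was chilled, both genes had higher means than in control leaf, with differences that did not pass the test. Whole-plant chilled leaf had 5618, 6116 and 5660 CPM of ssu1 and 5444, 5553 and 5770 CPM of ssu2. Shoot-only chilled leaf had 5622, 5595 and 6610 CPM of ssu1 and 5298, 5249 and 6215 CPM of ssu2. All 6 chilled leaf libraries lay above the 3 control libraries for each gene on this scaling. On the scale common to 48 libraries 1 of them, whole-plant replicate 1 with 8771 CPM of ssu1, lay below control replicate 1 with 8782 CPM. Under whole-plant chilling the log2 differences were 0.32 for ssu1 (95% interval -0.01 to 0.66, adjusted p = 0.13) and 0.40 for ssu2 (95% interval 0.06 to 0.73, adjusted p = 0.068), and 30.1% of all genes were called in either direction. Under shoot-only chilling they were 0.36 (95% interval 0.03 to 0.69, adjusted p = 0.095) and 0.40 (95% interval 0.06 to 0.73, adjusted p = 0.07), with 29.4% of all genes called. DESeq2 called ssu2 in both comparisons, with adjusted p = 0.035 under whole-plant and 0.033 under shoot-only chilling, and ssu1 under shoot-only chilling (adjusted p = 0.047). A fit of only the 6 libraries compared called the same 3 differences. It gave 0.40 for ssu2 under whole-plant chilling (adjusted p = 0.043). Under shoot-only chilling it gave 0.39 for ssu2 (0.022) and 0.36 for ssu1 (0.046). Library size alone and the fit of all 48 libraries gave smaller differences that were not called. With library size alone, which put the medians over all genes at -0.21 and -0.17, they were 0.11 and 0.19 for ssu1 and 0.19 and 0.23 for ssu2 (adjusted p of 0.28 to 0.63), and with all 48 libraries in 1 fit 0.22 and 0.30 for ssu1 and 0.30 and 0.34 for ssu2 (adjusted p of 0.31 to 0.69).

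Set against each other, the 2 treatments with a cold leaf gave nearly the same levels. The log2 difference of whole-plant minus shoot-only chilling was -0.04 for ssu1 (95% interval -0.37 to 0.29) and 0.00 for ssu2 (95% interval -0.33 to 0.34), in a comparison in which 0.0694% of all genes were called. Both genes were higher under whole-plant than under root-only chilling, ssu1 by 2.03 (SE 0.16, adjusted p = 2.2e-09) and ssu2 by 2.69 (SE 0.17, adjusted p = 7.3e-11), where 30.1% of all genes were higher. They were likewise higher under shoot-only than under root-only chilling, by 2.07 (SE 0.17, adjusted p = 1.7e-09) and 2.69 (SE 0.17, adjusted p = 7.2e-11), where 29.6% of all genes were higher. These comparisons share libraries with those against control.

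**Figure D2:**
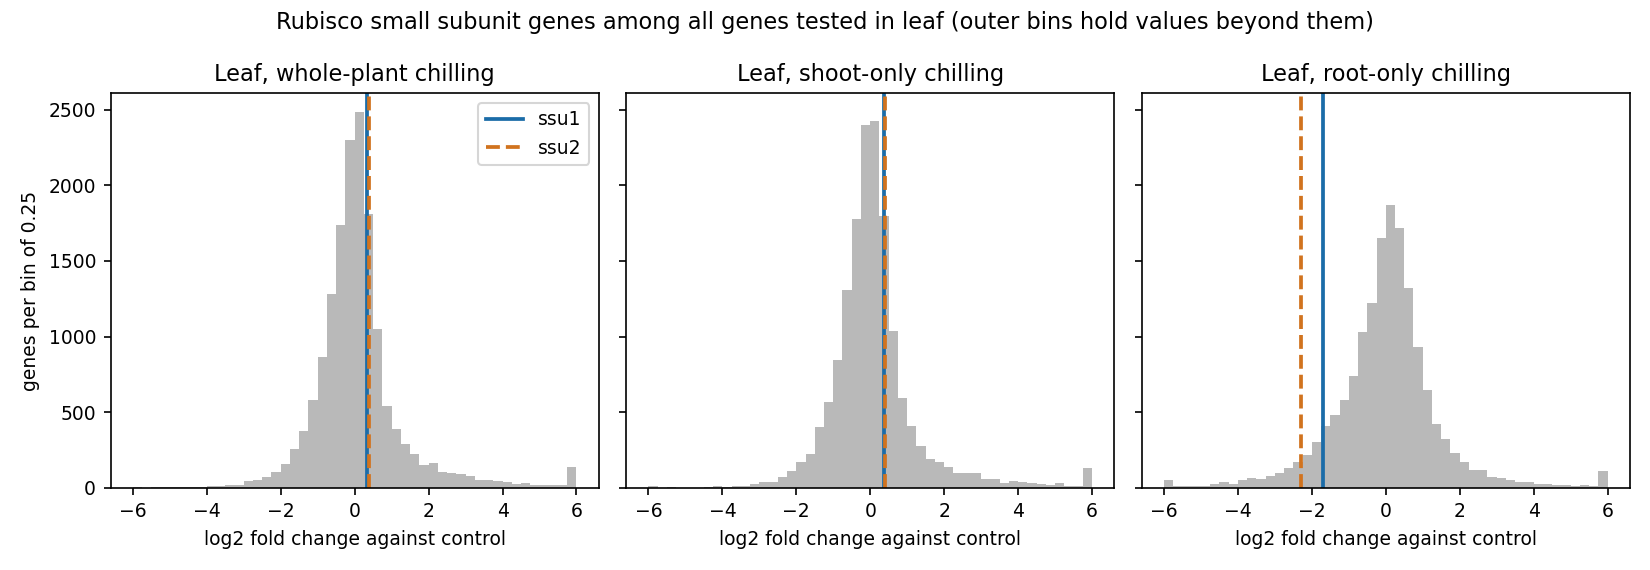
Number of genes per bin of log2 fold change against control in leaf, for 15845 genes and each chilling condition, with lines at ssu1 (solid) and ssu2 (dashed); the outermost bins also hold values beyond them. Under whole-plant and shoot-only chilling both lines lie between 0.32 and 0.40, and under root-only chilling they lie at -1.71 and -2.29 in the lower flank.

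Most of 124 highly expressed leaf genes were lower under root-only chilling, in a group that its choice tilts toward falls. These are the genes with a mean of at least 1000 CPM over the 12 leaf libraries, chosen here by level and holding ssu1 and ssu2. Of them 90 fell and 15 rose under root-only chilling. Over all genes 24.3% fell, and 7456 of 15845 were called in either direction. The median log2 change of the group was -1.36 against 0.06 over all genes tested. Within this group ssu2 had the 10th lowest change and ssu1 the 38th lowest. Under whole-plant chilling 8 fell and 25 rose, with a median of 0.13, and under shoot-only chilling 13 fell and 23 rose, with a median of 0.04. Of all genes 30.1% and 29.4% were called in either direction in these comparisons, with medians of 0 and -0.01. In those comparisons ssu1 held places 83 and 86 from the lowest change and ssu2 places 92 and 91. These counts describe the group and were not tested. The mean that chose the group covers all conditions. A gene low only under root-only chilling therefore passes more easily than a gene high only there.

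In the top crown, ssu2 rose under root-only chilling, the treatment that lowered it in leaf. Control top crown had 24.16, 28.99 and 28.08 CPM of ssu2, and root-only chilled plants had 56.91, 70.66 and 50.66 CPM, with no overlap. The change was 2.19-fold (log2 1.13, SE 0.19, adjusted p = 0.00018), in a comparison in which 17.8% of 17706 genes rose. For ssu1 the control libraries had 54.08, 53.42 and 36.06 CPM and the root-only libraries 63.86, 90.2 and 63.84 CPM. These groups did not overlap either, but the log2 difference of 0.60 (95% interval -0.03 to 1.22) had an adjusted p = 0.13. That value was 0.022 when only the 6 libraries compared were fitted, 0.0018 with no filter on low counts and 0.19 with library size alone.

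The other treatments moved the top crown levels less. Whole-plant chilled plants had 55.22, 65.78 and 57.91 CPM of ssu1 and 39.98, 43.91 and 29.61 CPM of ssu2. The log2 differences from control were 0.32 for ssu1 (adjusted p = 0.42) and 0.49 for ssu2 (adjusted p = 0.06), and 36.2% of all genes were called. The ssu2 difference had an adjusted p = 0.049 with DESeq2, and 0.016 with no filter on low counts. With library size alone, which put the median over all genes at -0.31, it was 0.25 (adjusted p = 0.37). Shoot-only chilled plants had 31.44, 77.34 and 33.84 CPM of ssu1 and 25.51, 43.16 and 29.41 CPM of ssu2. Replicate 2 was the high library of that group for both genes. The differences from control were -0.01 for ssu1 (adjusted p = 0.99) and 0.27 for ssu2 (adjusted p = 0.33), with 23.9% of all genes called.

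Between chilling treatments of the top crown, ssu2 was lower under shoot-only than under root-only chilling (log2 -0.86, SE 0.19, adjusted p = 0.0031), where 12.3% of all genes were lower. It was also lower under whole-plant than under root-only chilling (log2 -0.65, SE 0.19, adjusted p = 0.017), where 14.5% of all genes were lower. The latter call ended without root-only replicate 2 (adjusted p = 0.098) or whole-plant replicate 3 (0.1) and with all 48 libraries in 1 fit (0.068). For ssu1 neither difference passed the test, at -0.28 for whole-plant (adjusted p = 0.51) and -0.60 for shoot-only chilling (adjusted p = 0.16), both against root-only chilling. Without shoot-only replicate 2 the latter was -1.13 (adjusted p = 0.00037). Whole-plant minus shoot-only chilling gave 0.32 for ssu1 and 0.21 for ssu2 (adjusted p = 0.46 for each), with 25.8% of all genes called. Without shoot-only replicate 2 the ssu1 value was 0.87 (adjusted p = 0.0038).

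In the bottom crown, ssu2 rose under both treatments that chilled the root, and ssu1 was called under neither. Control plants had 67.06, 58.71 and 84.16 CPM of ssu2. Whole-plant chilled plants had 111.9, 110.4 and 114.2 CPM, and root-only chilled plants 121.5, 121.8 and 142.1 CPM. All 6 of these libraries lay above the control libraries. The change of ssu2 was 1.60-fold under whole-plant chilling (log2 0.68, SE 0.16, adjusted p = 0.0044) and 1.84-fold under root-only chilling (log2 0.88, SE 0.16, adjusted p = 0.00055). Of 18779 genes, 17.6% rose under whole-plant and 21.4% under root-only chilling. Scaling by library size alone shifted the medians over all genes to -0.23 and -0.29, and the ssu2 changes were 0.45 (adjusted p = 0.075, no longer called) and 0.61 (adjusted p = 0.016).

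For ssu1 the control libraries of the bottom crown had 98.24, 109.7 and 155.2 CPM, the whole-plant libraries 120.6, 118.9 and 157 CPM and the root-only libraries 107.9, 129.8 and 109.1 CPM. These 3 groups overlapped, and the log2 differences from control were 0.13 (95% interval -0.32 to 0.57) and -0.07 (95% interval -0.51 to 0.38). The sign of the first turned with library size alone (-0.11). Under shoot-only chilling ssu1 had 53.71, 97.79 and 73.04 CPM, and each of these lay below each control library, the gap between the nearest being under 1 CPM. This was a fall (log2 -0.69, SE 0.21, adjusted p = 0.025) where 11.8% of all genes fell. The call ended without control replicate 3 (log2 -0.47, adjusted p = 0.14), without shoot-only replicate 1 (-0.50, 0.11) or 3 (-0.67, 0.079), and with all 48 libraries in 1 fit (-0.69, 0.13). Under shoot-only chilling ssu2 had 57.42, 81.98 and 55.15 CPM, overlapping the control group, with a difference of -0.11 (95% interval -0.46 to 0.24).

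Whole-plant chilled bottom crown exceeded shoot-only chilled bottom crown for both genes, ssu1 by 0.82 (SE 0.21, adjusted p = 0.0066) and ssu2 by 0.79 (SE 0.16, adjusted p = 0.0014), where 19.1% of all genes were higher. Both were lower under shoot-only than under root-only chilling, ssu1 by a log2 difference of -0.63 (SE 0.21, adjusted p = 0.033) and ssu2 by -0.98 (SE 0.17, adjusted p = 0.00031), where 18.2% of all genes were lower. The ssu1 call ended without shoot-only replicate 1 (-0.43, adjusted p = 0.14) or 3 (-0.61, 0.093) or any 1 of the root-only libraries (adjusted p of 0.05 to 0.12), and with library size alone (-0.50, 0.11). Whole-plant and root-only chilling did not separate by the test for either gene, with differences of 0.19 for ssu1 (95% interval -0.25 to 0.64) and -0.20 for ssu2 (95% interval -0.54 to 0.15), and 23.7% of all genes were called.

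In root, where few counts stood behind each value, no comparison with control passed the test for either gene. The libraries held 2 to 42 counts of ssu1 and 12 to 57 counts of ssu2. Control root had 0.6991, 0.6146 and 1.947 CPM of ssu1, whole-plant chilled root 0.6672, 3.787 and 7.618 CPM, shoot-only chilled root 4.461, 2.363 and 3.057 CPM, and root-only chilled root 1.365, 6.509 and 2.133 CPM. The shoot-only libraries lay above the control libraries, and the other groups overlapped them. The log2 differences from control were 1.92 under whole-plant (95% interval 0.29 to 3.54, adjusted p = 0.072), 1.57 under shoot-only (95% interval -0.04 to 3.18, adjusted p = 0.15) and 1.59 under root-only chilling (95% interval 0.00 to 3.19, adjusted p = 0.26). Of 18831 genes 29.3%, 22.3% and 7.62% were called in these comparisons. Without whole-plant replicate 1, the library that stood apart, the whole-plant difference was 2.36 (adjusted p = 0.015). It was 1.11 without whole-plant replicate 3 (adjusted p = 0.35), 2.62 without control replicate 3 (0.057) and 1.64 with library size alone (0.13). The root-only difference was 0.68 without root-only replicate 2 (adjusted p = 0.78) and 2.29 without control replicate 3 (0.22), and the shoot-only difference 2.28 without control replicate 3 (0.097). All 48 libraries in 1 fit called the whole-plant difference (1.98, adjusted p = 0.0056) and the shoot-only difference (1.52, 0.039).

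For ssu2 control root had 3.495, 5.838 and 5.031 CPM, whole-plant chilled root 8.34, 9.355 and 10.39 CPM, shoot-only chilled root 6.489, 2.025 and 3.396 CPM, and root-only chilled root 8.342, 8.834 and 4.693 CPM. The whole-plant libraries lay above those of control, and the other groups overlapped them. The log2 differences from control were 0.96 (95% interval 0.14 to 1.79, adjusted p = 0.076), -0.29 (95% interval -1.15 to 0.57) and 0.60 (95% interval -0.22 to 1.41). The whole-plant difference was called with all 48 libraries in 1 fit (0.995, adjusted p = 0.0076), and it was 0.63 with library size alone (adjusted p = 0.26) and 1.03 without whole-plant replicate 1 (adjusted p = 0.081). Set directly against each other, whole-plant exceeded shoot-only chilling for ssu2 by 1.26 (SE 0.40, adjusted p = 0.016), where 26.8% of all genes were higher. That call ended without shoot-only replicate 2 (0.93, adjusted p = 0.077) or 3 (1.16, 0.061), and without whole-plant replicate 1 the difference was 1.33 (0.018). For ssu1 the same difference was 0.35 (95% interval -1.12 to 1.81), or 0.79 without that library (adjusted p = 0.3). Whole-plant minus root-only chilling gave 0.32 for ssu1 and 0.37 for ssu2, neither called where 14% of all genes were. Without whole-plant replicate 1 they were 0.77 (adjusted p = 0.47) and 0.44 (0.56). Shoot-only minus root-only chilling gave -0.02 for ssu1 and -0.89 for ssu2 (adjusted p = 0.088), where 37.6% of all genes were called. Without shoot-only replicate 1 the ssu2 value was -1.41 (adjusted p = 0.018).

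**Figure D3:**
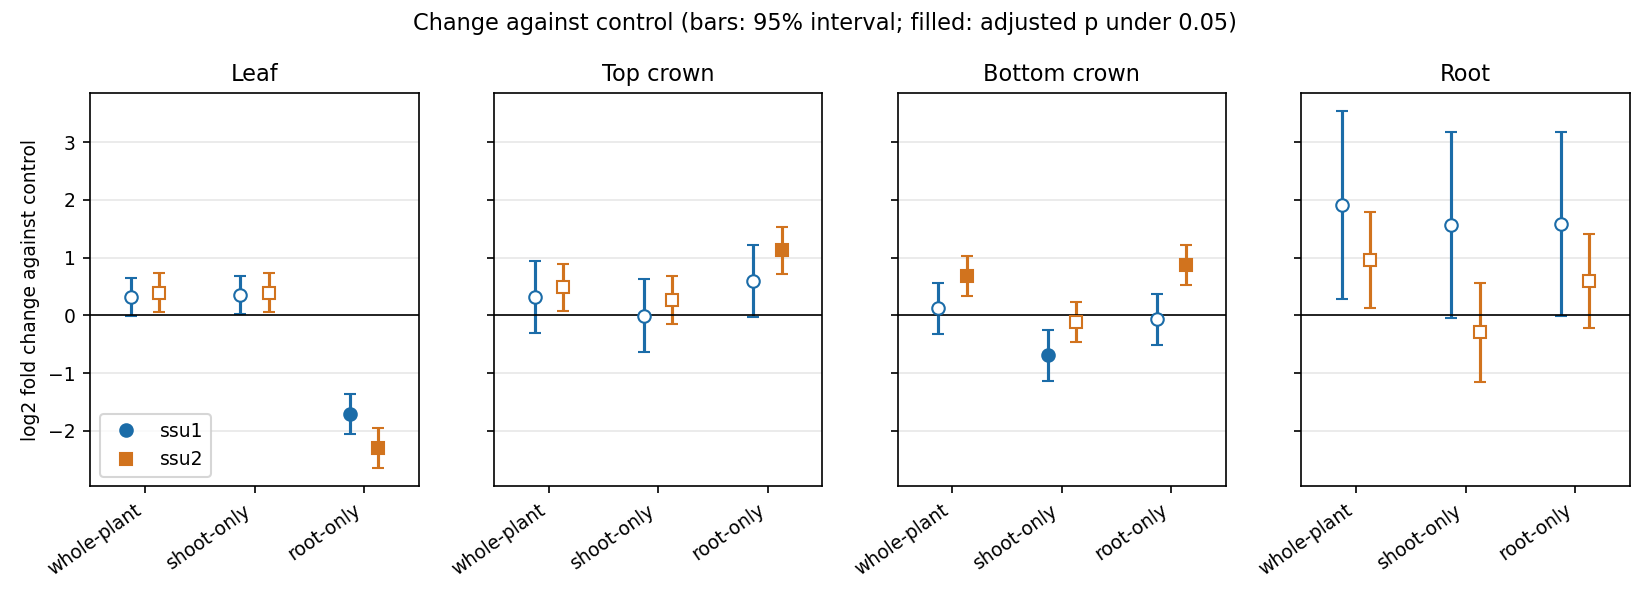
Log2 fold change against control of ssu1 (circles) and ssu2 (squares) for 3 chilling conditions in 4 tissues; bars are 95% intervals and filled symbols have an adjusted p under 0.05. The 2 leaf values under root-only chilling are negative (-1.71 and -2.29), while the filled ssu2 values of the crown parts are positive (0.68 to 1.13), and the root intervals are the widest for ssu1.

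The response to root-only chilling differed between leaf and crown for both genes. As leaf change minus top crown change, in 1 fit of all 48 libraries, the difference was -2.34 for ssu1 (SE 0.46, adjusted p = 9.4e-05) and -3.46 for ssu2 (SE 0.33, adjusted p = 7.5e-11), where 15.5% of all genes had a lower response in leaf. Against the bottom crown it was -1.66 for ssu1 (SE 0.45, adjusted p = 0.0035) and -3.19 for ssu2 (SE 0.33, adjusted p = 2.4e-10), where 17.3% of all genes did. When library size alone was used, which shifted the median over all genes to 0.59 and 0.77 in these comparisons, the values were -1.80 and -2.92 against the top crown and -0.95 and -2.48 against the bottom crown, and the call of ssu1 against the bottom crown was lost (adjusted p = 0.096).

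The responses to the treatments that chilled the shoot were not shown to differ between tissues. Under whole-plant chilling the leaf minus top crown difference was -0.13 for ssu1 and -0.22 for ssu2, where 9.14% of all genes were called, and the leaf minus bottom crown difference 0.09 and -0.39, where 7.06% were called. Under shoot-only chilling the leaf minus top crown difference was 0.31 and 0.07 (12.1% of all genes called), and the leaf minus bottom crown difference 0.997 for ssu1 (95% interval 0.09 to 1.91, adjusted p = 0.14) and 0.45 for ssu2 (14.7% called). The ssu1 value was called when only the libraries of the groups compared were fitted (1.03, adjusted p = 0.017). Between the crown parts none of the 6 differences was called. They ran from -0.17 for ssu2 under whole-plant chilling to 0.69 for ssu1 under shoot-only chilling, in comparisons in which 0.304% (whole-plant), 0.023% (shoot-only) and 1.62% (root-only) of all genes were called. The value for root-only chilling was 0.68 for ssu1 (95% interval -0.24 to 1.60) and 0.27 for ssu2 (95% interval -0.40 to 0.93).

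The ratio of ssu1 to ssu2 counts, which is taken within a library and does not depend on scaling, differed between tissues. In control plants it was 1.15, 1.14 and 0.984 in leaf, 2.24, 1.84 and 1.28 in top crown, 1.46, 1.87 and 1.84 in bottom crown, and 0.2, 0.105 and 0.387 in root. Leaf libraries thus held both transcripts in near-equal number, crown libraries more of ssu1, and root libraries more of ssu2. The group means of the log2 ratio spanned 3.01, from 0.80 in top crown to -2.21 in root. An exact permutation test of the between-group F statistic over 369600 arrangements gave p = 0.001 (adjusted p = 0.0052 over 5 such tests). It covers all tissues at once and does not test leaf against crown. The root ratios rest on 4 to 12 counts of ssu1 per library. A pseudocount of 0.5 was added to the counts of both genes.

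In leaf the ratio stayed near that of control under whole-plant chilling (1.03, 1.1 and 0.981) and shoot-only chilling (1.06, 1.07 and 1.06), and it was 1.68, 1.56 and 1.71 under root-only chilling. The root-only libraries lay above all 9 others. The means of the log2 ratio spanned 0.67 over the 4 conditions (exact permutation test, p = 0.012, adjusted p = 0.019). In the bottom crown the direction was the opposite. The ratio was 1.08, 1.08 and 1.37 under whole-plant chilling, 0.935, 1.19 and 1.32 under shoot-only chilling and 0.888, 1.07 and 0.768 under root-only chilling, and every chilled library lay below every control library. The log2 means spanned 0.93 (exact permutation test, p = 0.0064, adjusted p = 0.016).

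Top crown ratios were 1.38, 1.5 and 1.96 under whole-plant chilling, 1.23, 1.79 and 1.15 under shoot-only chilling and 1.12, 1.28 and 1.26 under root-only chilling, with log2 means spanning 0.52 (exact permutation test, p = 0.21). Root ratios were 0.08, 0.405 and 0.733 under whole-plant chilling, 0.688, 1.17 and 0.9 under shoot-only chilling and 0.164, 0.737 and 0.455 under root-only chilling (exact permutation test, p = 0.17). Without whole-plant replicate 1, the library at 0.08, the other whole-plant libraries lay above the 3 controls, and the test had an adjusted p = 0.1 against 0.21 with it (exact permutation). A single treatment against control has 3 libraries a side and cannot go below an exact p of 0.1, which was reached in leaf under root-only chilling, in top crown under root-only chilling, in bottom crown under all 3 treatments, and in root under shoot-only chilling.

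The shift of the log2 ratio under root-only chilling was 0.60 in leaf, -0.52 in top crown and -0.93 in bottom crown. Leaf and top crown shifts differed by 1.12 and leaf and bottom crown shifts by 1.53. Each had p = 0.005 in an exact permutation test within tissues, the smallest that 400 arrangements can give (adjusted p = 0.022 over 9 tests). That test shuffles conditions inside each tissue, so its null is no effect on the ratio in either tissue, not equal shifts. It was added after the data had been seen. The other 7 differences did not pass the permutation test, with the largest at 0.56 for leaf against bottom crown under shoot-only chilling (adjusted p = 0.21). With replicate number as a block, the permutation test gave both differences under root-only chilling an adjusted p = 0.14. The block left too few arrangements for these differences alone to pass the threshold over 9 tests, whatever their size. That value therefore cannot decide whether they hold.

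**Figure D4:**
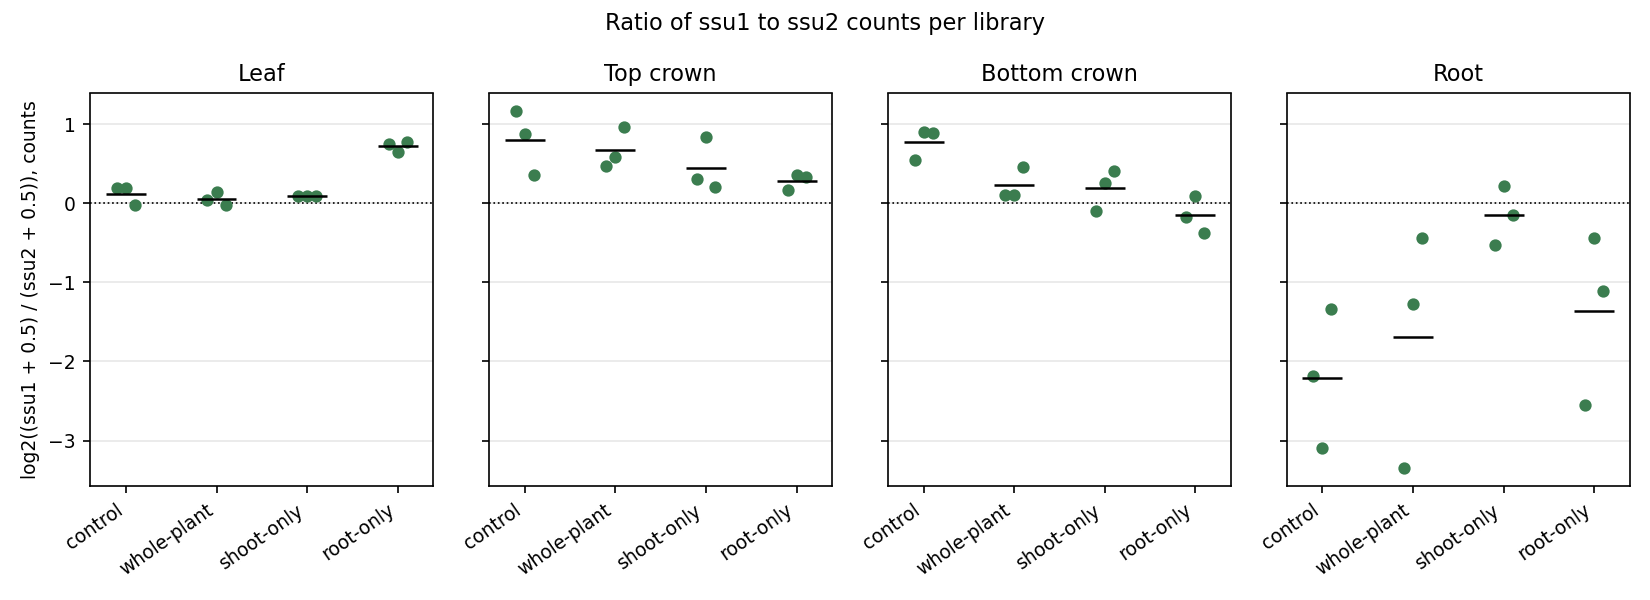
Log2 ratio of ssu1 to ssu2 counts per library, with 0.5 added to each count, by tissue and condition; points are libraries, lines are means of 3 and the dotted line marks equal counts. The leaf mean moves up from 0.12 in control to 0.72 under root-only chilling, while the bottom crown mean moves down from 0.78 to -0.15.

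The plastid partner of these genes, rbcL (ZemaCp032), gave almost no counts. It had 7 counts in all, in 5 of 48 libraries and never more than 2 in a library. All 5 were leaf libraries, and they included the 3 controls. The other 43 libraries were at 0, which allows up to 3 counts, or 0.347 to 0.748 CPM depending on the library, as counting error only. Plastid messages largely lack the poly(A) tails on which these libraries were primed, so these counts do not measure the level of rbcL RNA, and the balance of large and small subunit transcripts cannot be given.

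The remaining genes of the pathway could be followed only where a name was paired with an identifier. Of 13 listed symbols for the large subunit and Rubisco assembly factors rbcL alone matched, and none of 9 C4 cycle enzymes, 11 Calvin cycle enzymes or 16 nuclear light reaction genes did. All 32 plastid genes of the photosystems, the cytochrome b6f complex and the ATP synthase matched, of which 14 had counts, and all 11 plastid genes of the NDH complex, of which 5 had counts. In leaf 4 of these passed the filter on low counts: psaJ, a subunit of photosystem I, petD, a subunit of the cytochrome b6f complex, atpF, a subunit of the ATP synthase, and ndhD, a subunit of the NDH complex. As plastid messages they fall under the limit given for rbcL, so differences are those of captured counts and not of RNA levels. None was called under root-only chilling, where ssu1 and ssu2 fell and 7456 of 15845 genes were called in either direction. The log2 differences were 0.14 for psaJ (SE 0.32), 0.23 for petD (SE 0.57), -0.17 for atpF (SE 0.84) and 1.09 for ndhD (SE 1.31). For petD, atpF and ndhD these errors are too wide to show whether the counts changed. Of the 4, psaJ alone was called under the other treatments, where 30.1% (whole-plant) and 29.4% (shoot-only) of all genes were. It had 5.89 ± 2.46 CPM in control leaf, 2.70 ± 0.84 under whole-plant, 1.51 ± 0.42 under shoot-only and 6.42 ± 1.27 CPM under root-only chilling (SD, n = 3 each). Its counts fell under whole-plant chilling (log2 -1.12, SE 0.38, adjusted p = 0.028), and likewise with shoot-only chilling (log2 -1.95, SE 0.41, adjusted p = 0.001). The first call ended without control replicate 3 (-0.74, adjusted p = 0.21) or whole-plant replicate 1 (0.066) or 3 (0.11), and with all 48 libraries in 1 fit (0.08).

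Other transcripts shared the distribution of the small subunit genes. Over the 16 group means, Pearson's r of log2 CPM was highest with ssu1 for Zm00001d027488 (0.997) and Zm00001d044335 (0.995), among 16128 features with at least 10 CPM in a group. For ssu2 it was highest with Zm00001d039258 and Zm00001d027456 (0.990 each). The genes themselves correlated at 0.984, which placed ssu2 in position 31 for ssu1 and ssu1 in position 23 for ssu2. These values are a description over 16 points that share tissues, and 723 features had r above 0.9 with ssu1 and 1028 with ssu2. In control leaf Zm00001d027488 stood at 5809 ± 215.5 CPM and under root-only chilling at 1680 ± 46.9 CPM, and Zm00001d039258 at 1677 ± 34.7 and 430.9 ± 15.8 CPM (SD, n = 3 each). Zm00001d044335 also fell, from 209.2 ± 16.4 to 132.6 ± 17.7 CPM (log2 -0.66, edgeR adjusted p = 0.0015). That change was smaller than the log2 -1.79 of Zm00001d027488 and the -1.96 of Zm00001d039258.

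Over the 12 leaf libraries alone the genes were closest to each other but for 1 feature each. The correlation of ssu1 with ssu2 was 0.9968, second among 8118 features for each gene, after Zm00001d021370 for ssu1 (0.9977) and Zm00001d026501 for ssu2 (0.9974). High correlation was common here, as 1020 features had r above 0.9 with ssu1 and 1061 with ssu2. Zm00001d021370 had 1124 ± 222.9 CPM in control leaf, 1401 ± 139.8 and 1477 ± 180.0 CPM under whole-plant and shoot-only chilling and 205.4 ± 38.1 CPM under root-only chilling. Zm00001d026501 had 790.6 ± 28.9, 995.2 ± 52.2, 1006 ± 85.5 and 80.97 ± 22.7 CPM in the same order. The means of both were lowest under root-only chilling and above control under the other treatments, as those of ssu1 and ssu2 were, which is what the correlation selected. Their differences from control under whole-plant and shoot-only chilling were not called (edgeR adjusted p of 0.11 to 0.19). The files pair none of these identifiers with a name.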

How the data were processed

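RNA was measured in 48 libraries made with a QuantSeq 3′ kit, per the labels' protocols. The authors deposited raw read counts per feature for each library, on which every test was run. The submitters' processing notes name STAR and edgeR without versions, and the build, the counter and its strand option are not given in the sources used. The 4 tables of values normalized by the authors, with 48 columns, were not used. Samples were grouped by tissue and condition from their titles. The members and gene lists were chosen with earlier results of these data known.

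Each tissue was fitted on its 12 libraries with edgeR 4.0.16 in R 4.3.3 over all genes: filterByExpr, TMM scaling, 1 mean per condition in a robust quasi-likelihood model, and p-values adjusted by Benjamini-Hochberg over all genes tested, with a threshold of 0.05. A gene was called when its adjusted p was under that threshold. Tissues in control plants, and responses to chilling between tissues, were compared in 1 fit of 48 libraries with 16 group means. Standard errors follow from the quasi-likelihood F value. Ratios of ssu1 to ssu2 were tested by exact permutation with a pseudocount of 0.5. Other genes were named from lists where a symbol matched an identifier, and, as most alike, the 2 features with the highest Pearson correlation of log2 CPM (prior count 2) with each member. Symbols came from a RefSeq name table, which matched 518 of the 2284 features that are not nuclear gene models. The fitting steps were tested on simulated counts. Alternatives were other scalings, no filter on low counts, a replicate block, DESeq2 1.42.0, other sets of libraries in the fit, another pseudocount and leaving out each library. Intervals and floors of counts cover counting error only where they come from counts of 1 library. Depth ran from 3449880 to 8633854 counts. Root values of the 2 genes rest on 57 counts or fewer per library. No sequence is shown, because none was in the files used.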

Additional observations from a re-analysis of the deposited data

Results flagged for a closer look

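For ssu1 the response of the leaf to root-only chilling differed from that of the top crown by -2.34 on the log2 scale and from that of the bottom crown by -1.66, by the interaction term of edgeR's quasi-likelihood test (adjusted p = 9.4e-05 and 0.0035). For ssu2 the same differences were -3.46 and -3.19 (adjusted p = 7.5e-11 and 2.4e-10). In leaf both genes fell, and in the crown parts neither was called lower under this treatment. The shift of the log2 ratio of ssu1 to ssu2 under root-only chilling also differed between leaf and top crown, by 1.12, and between leaf and bottom crown, by 1.53 (exact permutation tests, adjusted p = 0.022 for each). The null of those tests was no effect on the ratio in either tissue. With a replicate block they gave an adjusted p = 0.14 for each, with too few arrangements for these differences alone to pass the threshold. The labels do not give the temperature of the crown parts in this treatment. Whether that temperature bears on the differences was not tested.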

How the results depend on the processing

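Of 101 results recomputed under settings other than leaving out a library, 568 of 621 values kept their direction and their side of the threshold, and of the values without 1 library 745 of 798 did. The falls of ssu1 and ssu2 in leaf under root-only chilling, the rise of ssu2 in both crown parts under that treatment and all tissue differences in control plants kept both throughout. The cause of the changes listed here was not tested. Values are log2 differences, given as treatment minus control unless a second treatment is named.

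With all 48 libraries in 1 fit, the calls of ssu1 in bottom crown under shoot-only chilling (-0.69) and shoot-only minus root-only (-0.61) and of ssu2 in top crown for whole-plant minus root-only (-0.61) were lost. Calls were gained in root for ssu1 under shoot-only (1.52) and whole-plant chilling (1.98) and for ssu2 under whole-plant chilling (0.995) and shoot-only minus root-only (-0.96). With library size alone, ssu1 lost bottom crown shoot-only minus root-only (-0.50) and the leaf minus bottom crown difference under root-only chilling (-0.95), ssu2 lost bottom crown under whole-plant chilling (0.45) and gained root shoot-only minus root-only (-1.16). Signs turned for ssu1 in bottom crown under whole-plant chilling (-0.11), in the leaf minus top crown difference under whole-plant chilling (0.031) and in root whole-plant minus root-only (-0.073, and -0.044 for ssu2). None of these was called. DESeq2 gained ssu1 in leaf under shoot-only (0.38), ssu2 in leaf under whole-plant and shoot-only (0.41 each), ssu1 in root (1.94) and ssu2 in top crown (0.52) under whole-plant chilling. Only the libraries compared gained ssu1 in leaf (0.36) and root (1.55) under shoot-only, ssu2 in leaf under shoot-only (0.39) and whole-plant (0.40), ssu1 in top crown under root-only (0.61), ssu2 in top crown under whole-plant chilling (0.49) and the ssu1 difference of leaf minus bottom crown under shoot-only chilling (1.03). RLE factors gained ssu2 in top crown under whole-plant chilling (0.52), as did no filter on low counts (0.52), which also gained ssu1 there under root-only (0.61) and shoot-only minus root-only (-0.58). The difference of ssu1 in top crown under shoot-only chilling, -0.01, became 0.021 with DESeq2, 0.024 with RLE factors and 0.026 with no filter. That of ssu2 in leaf for whole-plant minus shoot-only, 0.00, ran from -0.046 with library size alone, -0.044 with 48 libraries, -0.022 with 6 libraries and -0.005 with DESeq2 and RLE factors to -0.001 with the replicate block.

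Samples with the same replicate number deviated together in part. Their correlation was over 0.1 in 8 of 18 pairs in bottom crown, 9 in leaf, 15 in root and 9 in top crown. All such correlations were positive in root (0.012 to 0.527). They ran from -0.184 to 0.354 in leaf, -0.333 to 0.367 in top crown and -0.213 to 0.305 in bottom crown. Per tissue 2 to 4 of 12 samples correlated best with their own number in every other condition at once. The number that unpaired samples would give was not computed. Whether the numbers pair samples was not tested, and the main fits treated samples as unpaired. A replicate block moved counts of calls to between 98.4% and 140% of the main counts. It gained ssu1 in top crown under root-only (0.59) and shoot-only minus root-only (-0.67) and ssu2 there under whole-plant chilling (0.47). The sign of ssu1 in root for shoot-only minus root-only turned (0.12). The ratio shifts of leaf against bottom crown (1.53) and top crown (1.12) had an adjusted p = 0.14 in the permutation test. With the block, that test has too few arrangements for these differences alone to pass the threshold.

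Leaving out each library moved the bottom crown values of ssu1 from -0.20 to 0.15 under root-only, -0.014 to 0.34 under whole-plant, -0.93 to -0.47 under shoot-only and -0.87 to -0.43 for shoot-only minus root-only chilling, and that of ssu2 from -0.31 to 0.047 under shoot-only chilling. In top crown ssu1 ran from -0.53 to 0.23 under shoot-only, -1.13 to -0.37 for shoot-only minus root-only and 0.10 to 0.87 for whole-plant minus shoot-only, and ssu2 from 0.38 to 0.65 under whole-plant and -0.75 to -0.48 for whole-plant minus root-only chilling. In root ssu1 ran from 1.11 to 2.62 under whole-plant, 1.27 to 2.28 under shoot-only, 0.68 to 2.29 under root-only, -0.41 to 0.87 for shoot-only minus root-only, -0.48 to 1.23 for whole-plant minus root-only and -0.45 to 0.79 for whole-plant minus shoot-only, and ssu2 from -0.82 to 0.031 under shoot-only, -1.41 to -0.56 for shoot-only minus root-only and 0.93 to 1.78 for whole-plant minus shoot-only. In leaf, whole-plant minus shoot-only ran from -0.076 to 0.051 for ssu1 and -0.042 to 0.087 for ssu2, and psaJ under root-only chilling from -0.14 to 0.51. Differences between leaf and crown ran from -0.12 to 0.23 (ssu1, bottom crown, whole-plant), -0.22 to 0.035 (ssu1, top crown, whole-plant), -0.079 to 0.31 (ssu2, top crown, shoot-only) and, for the ratio shift in top crown under whole-plant chilling, -0.12 to 0.28.

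Counts of all genes called moved by over 1.5 times in a few comparisons. Leaf whole-plant against shoot-only had 11 calls, 96 with no filter, 21 with DESeq2 and 0 with 6 libraries. In root, 48 libraries gave 6348 against 4196 (shoot-only), 2516 against 1435 (root-only) and 4509 against 2640 calls (whole-plant minus root-only, 4335 with library size alone and 1605 with 6 libraries), and 6 libraries gave 3666 against 5515 (whole-plant). Differences between crown parts had 66, 5 and 351 calls under whole-plant, shoot-only and root-only chilling, 167, 19 and 576 with DESeq2 and 181, 30 and 659 with the libraries compared alone. Few counts stood behind the root values, where ssu1 had as few as 2 counts in a library.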

Other observations

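Of the plastid genes listed, atpF, which codes for a subunit of the ATP synthase, passed the filter on low counts in the crown parts. In the top crown it had 3.13 ± 1.94 CPM in control plants, 1.22 ± 0.64 under whole-plant, 0.404 ± 0.33 under shoot-only and 0.454 ± 0.12 CPM under root-only chilling (SD, n = 3 each). As a plastid message atpF is poorly captured in poly(A)-primed libraries, and the differences are those of captured counts, not of RNA levels. These counts fell under shoot-only chilling (log2 -2.85, SE 0.64, edgeR adjusted p = 0.0037) and under root-only chilling (log2 -2.74, SE 0.62, adjusted p = 0.0019), and both calls ended with all 48 libraries in 1 fit (adjusted p = 0.1 and 0.072). In the bottom crown it had 2.53 ± 0.82 CPM in control plants and 0.371 ± 0.33 CPM under shoot-only chilling, a fall in captured counts (log2 -2.74, SE 0.83, adjusted p = 0.024) that was lost without control replicate 3 (adjusted p = 0.091) or shoot-only replicate 1 (0.088), and also in the fit of all 48 libraries (0.1). The differences there under whole-plant (-1.49, adjusted p = 0.1) and root-only chilling (-1.75, 0.069) were not called, nor was that of the top crown under whole-plant chilling (-1.31, 0.057).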
